A study of Mus musculus with 12 samples.

Results

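Slow muscle fibres build their contractile apparatus from a set of genes of their own. The 10 genes described here encode parts of that set: the heavy chain and light chains of slow myosin (Myh7, Myl2, Myl3), the 3 slow troponin subunits (Tnnt1, Tnni1, Tnnc1), a slow tropomyosin (Tpm3), the calcium pump and calcium buffer of the sarcoplasmic reticulum (Atp2a2, Casq2) and a Z-disc protein (Myoz2). They were chosen by gene symbol, and all 10 were found among the 24539 genes listed. RNA was sequenced from the soleus, a calf muscle rich in slow fibres, of C57BL/6 mice on chow diet. The 4 groups held 3 libraries each: exercised MCK-Dnmt3a KO mice, exercised WT mice, sedentary MCK-Dnmt3a KO mice and sedentary WT mice. WT mice carried floxed Dnmt3a, and MCK usually stands for muscle creatine kinase, whose promoter acts in striated muscle, the heart included. Dnmt3a encodes an enzyme that adds methyl groups to DNA. The sources used here do not give age, sex, the form of exercise or the time from exercise to dissection. Letters a, b and c name the libraries of a group. In the table's headers 2 animal numbers stand over KO exercise a, and likewise over WT exercise a, and no source says whether animals were pooled there.

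In a slow fibre, calcium released from the sarcoplasmic reticulum binds troponin C, tropomyosin shifts on the thin filament, and myosin heads pull on actin. The calcium pump then returns calcium to its store, where calsequestrin holds it. Slow and fast fibres use different genes for nearly every one of these steps, so the balance of each slow gene with its fast counterpart describes the fibre makeup of a muscle. Calcineurin, NFAT and MEF2 factors and the coactivator PGC-1 alpha are known to favour the slow programme, and many of its genes are also expressed in the heart. In whole muscle, fewer fibres of a type and less RNA per fibre cannot be told apart.

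Total counts ran from 13329547 to 15480960 per library, and the 10 genes together took 3.14% to 4.45% of them. Dnmt3a, the targeted gene, stood at 57.4 to 60.5 CPM in exercised KO, 113 to 175 in exercised WT, 48.6 to 52.7 in sedentary KO and 133 to 180 CPM in sedentary WT muscle, so every KO library lay below every WT library. CPM are counts divided by library size, with TMM factors to make libraries comparable. Of 8 heart markers, Nkx2-5 was at 0 in all 12 libraries, and the 8 together summed to 31.1 to 70.2 CPM. One library stood apart by its fast genes: in KO sedentary b, Myh4, the fastest myosin heavy chain, reached 5502 CPM, against 33.7 to 1740 CPM elsewhere. The same library was highest for the summed markers of macrophages (392 CPM, against 44.2 to 102 CPM in the others), of Schwann cells (971 CPM, against 186 to 880 CPM) and of liver (405 CPM, against 0 to 268 CPM). Median fold changes of the 10 genes and differences in the share of Myh7 that involve sedentary KO mice are therefore also given without it. Summed levels, counts of the 10 genes without overlap and correlations between them are given only with it.

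Promoter sequence, from 250 bases before to 50 bases after an annotated start, was taken from RefSeq (build GRCm38.p6, which shares its coordinates with mm10). It was found for 9 of the 10 genes, in 13 windows of 300 bases; Atp2a2 had none in the table. Tnni1, Tpm3, Myl2 and Myh7 had 2 windows each, which overlap for Tnni1 and Myh7. Both windows of Myl2, chr5:122092474-122092773 and chr5:122092939-122093238, lie wholly before the gene start used for its coordinates below, 122100951. The sequence at that start of Myl2 was not searched. Motifs known from muscle promoters were searched as letters on both strands: MCAT (CATTCC), the E-box (CANNTG), the MEF2 site and the CArG box, with the TATA box (TATAAA or TATATA) on the gene's strand only. MCAT letters occurred in 3 of the 13 windows (1 each of Myh7, Myl3 and Tnnc1), against 14.66% of all 32851 windows in the table. MEF2 letters occurred in 2 windows (Casq2 and Myoz2), against 3.19% of all windows. CArG letters occurred in 1 window, that of Myl3, against 1.63%, E-box letters in all 13, against 72.31%, and TATA letters in 5, against 12.49%. These are matches of letters, not measured binding.

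The windows of 3 genes are shown because of where they stood among the 10: Tnnc1 belonged to the most tightly correlated pair, Casq2 followed the others least, and Myoz2 had the smallest unadjusted p for exercise averaged over genotypes. Capitals mark MCAT letters in Tnnc1 (on the opposite strand) and MEF2 letters in Casq2 and Myoz2.
Tnnc1, chr14:31208062-31208361, plus strand: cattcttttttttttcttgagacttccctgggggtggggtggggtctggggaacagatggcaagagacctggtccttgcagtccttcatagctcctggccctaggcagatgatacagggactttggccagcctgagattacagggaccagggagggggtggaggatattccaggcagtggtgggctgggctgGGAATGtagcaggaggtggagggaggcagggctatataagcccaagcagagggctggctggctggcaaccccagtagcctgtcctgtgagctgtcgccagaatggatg
Casq2, chr3:102086165-102086464, plus strand: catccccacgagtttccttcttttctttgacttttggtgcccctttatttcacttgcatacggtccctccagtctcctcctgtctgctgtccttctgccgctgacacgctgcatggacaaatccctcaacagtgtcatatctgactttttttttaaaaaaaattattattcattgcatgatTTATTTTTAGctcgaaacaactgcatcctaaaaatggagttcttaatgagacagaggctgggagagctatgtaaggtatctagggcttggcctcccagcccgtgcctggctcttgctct
Myoz2, chr3:123034938-123035237, minus strand: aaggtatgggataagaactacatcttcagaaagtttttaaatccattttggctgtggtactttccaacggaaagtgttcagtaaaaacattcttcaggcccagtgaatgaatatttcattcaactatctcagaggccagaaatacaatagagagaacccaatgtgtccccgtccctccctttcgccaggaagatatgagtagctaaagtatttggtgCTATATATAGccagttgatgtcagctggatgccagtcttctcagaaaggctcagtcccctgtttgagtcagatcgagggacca
The MCAT letters of Tnnc1 begin at position -58 from the start, with TATA letters at -26. In Casq2 the MEF2 letters begin at -69. In Myoz2 they begin at -33 and overlap the TATA letters at -32 and -30.

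The slow myosin genes also host microRNAs, whose mature forms are shown because they lie inside Myh7 and its relative Myh7b. Capitals mark the seed, bases 2 to 8.
mmu-miR-208b-3p, chr14:54975710-54975731, minus strand, within Myh7 and outside its exons: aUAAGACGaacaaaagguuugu
mmu-miR-499-5p, chr2:155622893-155622913, plus strand, within Myh7b and outside its exons: uUAAGACUugcagugauguuu
The table's row for Mir208b held 0 to 4 counts and that for Mir499 held 0 counts in every library. Counts this low say nothing about the mature microRNA. Myh7b itself stood at 44.1 to 87.7 CPM.

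Myh7 (chromosome 14, 54970684 to 54994626, minus strand, mm10) encodes the slow and beta-cardiac myosin heavy chain, the motor of slow fibres. It stood at 12450, 10270 and 10530 CPM in exercised KO, 9781, 8344 and 11470 CPM in exercised WT, 8655, 7055 and 9069 CPM in sedentary KO and 7416, 10950 and 8804 CPM in sedentary WT muscle. All 3 exercised KO libraries lay above all 3 sedentary KO libraries, while KO and WT overlapped in both conditions. The group means were 11080 ± 1189 CPM in exercised KO, 9863 ± 1562 CPM in exercised WT, 8259 ± 1064 CPM in sedentary KO and 9055 ± 1779 CPM in sedentary WT muscle (SD, n = 3 each). Mhrt, a long noncoding RNA on the opposite strand, shares 484 bases (5.62%) of the exons of Myh7 and held 5.84% to 6.87% as many counts. The sources used do not say whether counting used strand, so reads in the shared part cannot be assigned. Of the 100-base stretches of the Myh7 transcript, 13.9% also occur in other genes, chiefly its cardiac neighbour Myh6 (11.2%), which had 178 to 262 counts.

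Myl2 (chromosome 5, 122100951 to 122113472, plus strand) encodes the regulatory light chain of slow and ventricular myosin. Its levels were 4686, 4502 and 4958 CPM in exercised KO, 4625, 3917 and 5213 CPM in exercised WT, 3668, 3136 and 3785 CPM in sedentary KO and 3473, 4838 and 4061 CPM in sedentary WT muscle. The exercised KO libraries were all above the sedentary KO libraries, and the WT groups overlapped. Myl3 (chromosome 9, 110741861 to 110769798, plus strand), the essential light chain, had 5746, 5148 and 5447 CPM in exercised KO, 5818, 4275 and 6059 CPM in exercised WT, 3754, 3995 and 5028 CPM in sedentary KO and 4556, 5648 and 5400 CPM in sedentary WT muscle. Its exercised KO libraries again lay above the sedentary KO ones, here by a narrow gap, with 5148 CPM as the lowest exercised and 5028 CPM as the highest sedentary value. Both light chains averaged less in sedentary KO than in sedentary WT muscle: 3530 ± 346 against 4124 ± 685 CPM for Myl2, and 4259 ± 677 against 5201 ± 572 CPM for Myl3 (SD, n = 3 each). These differences did not pass the test given further on.

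The 3 slow troponin subunits gave similar patterns over the libraries. Tnnt1 (chromosome 7, 4504570 to 4516382, minus strand), which anchors the complex to tropomyosin, had 4688, 4643 and 5035 CPM in exercised KO, 4129, 3833 and 4963 CPM in exercised WT, 3546, 4141 and 4087 CPM in sedentary KO and 3400, 4505 and 3712 CPM in sedentary WT muscle. Tnni1 (chromosome 1, 135779434 to 135810989, plus strand), the inhibitory subunit, had 2076, 2005 and 2112 CPM in exercised KO, 1802, 1776 and 2221 CPM in exercised WT, 1752, 1593 and 1846 CPM in sedentary KO and 1347, 2111 and 1747 CPM in sedentary WT muscle. Tnnc1 (chromosome 14, 31208312 to 31211729, plus strand), the calcium sensor, had 2350, 2358 and 2484 CPM in exercised KO, 2032, 1941 and 2591 CPM in exercised WT, 1913, 1809 and 2067 CPM in sedentary KO and 1550, 2343 and 1990 CPM in sedentary WT muscle. For all 3 subunits the exercised KO libraries lay above the sedentary KO libraries without overlap. The exercised KO libraries were also close to one another, at 2064 ± 54.4 CPM for Tnni1, against 1735 ± 382 CPM in sedentary WT muscle (SD, n = 3 each). In sedentary WT muscle library a was low and library b high for all 3 subunits.

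Tpm3 (chromosome 3, 90072649 to 90100902, plus strand) encodes the slow alpha-tropomyosin and, by other promoters, tropomyosins of the general cytoskeleton. Its levels were 2800, 2675 and 2806 CPM in exercised KO, 2388, 1811 and 3018 CPM in exercised WT, 1820, 2152 and 2377 CPM in sedentary KO and 1826, 2757 and 2392 CPM in sedentary WT muscle. Exercised WT muscle held both the lowest and the highest value, in libraries b and c. Of the 100-base stretches of its transcript, 45.7% also occur in Tpm3-rs7, a near-identical copy, so its level is uncertain. Myoz2 (chromosome 3, 123006206 to 123035015, minus strand), also called calsarcin-1, tethers calcineurin at the Z-disc and had 1847, 1682 and 1869 CPM in exercised KO, 1836, 1340 and 2007 CPM in exercised WT, 1314, 1322 and 1396 CPM in sedentary KO and 1311, 1679 and 1632 CPM in sedentary WT muscle. The exercised and sedentary KO libraries were separated for both genes, and the WT libraries were not.

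Atp2a2 (chromosome 5, 122453513 to 122502225, minus strand) encodes the calcium pump SERCA2, of slow and cardiac muscle. It stood at 8424, 8250 and 8990 CPM in exercised KO, 7450, 7818 and 8554 CPM in exercised WT, 7211, 5258 and 7779 CPM in sedentary KO and 6358, 8029 and 6541 CPM in sedentary WT muscle. The lowest of these, 5258 CPM, belonged to KO sedentary b. Casq2 (chromosome 3, 102086415 to 102146514, plus strand), the cardiac and slow calsequestrin, was the least abundant of the 10, at 551, 451 and 456 CPM in exercised KO, 547, 431 and 460 CPM in exercised WT, 469, 339 and 418 CPM in sedentary KO and 362, 450 and 370 CPM in sedentary WT muscle. Casq2 was the one gene of the 10 whose exercised and sedentary KO libraries overlapped: KO sedentary a, at 469 CPM, lay above KO exercise b and c.

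**Figure D1:**
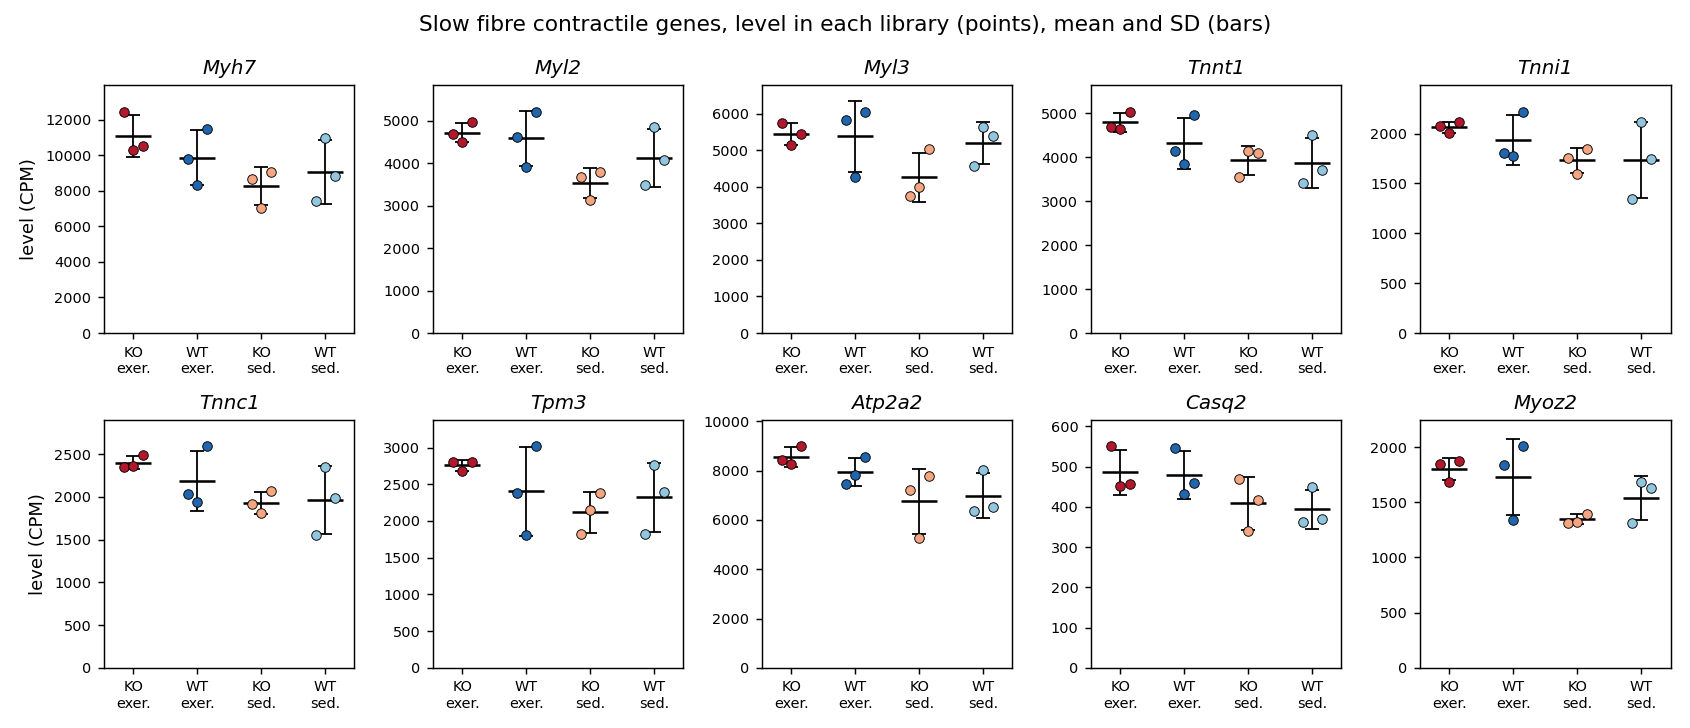
Level of each of the 10 genes in CPM (vertical axis, starting at 0), with 1 point per library and 1 column per group, and the group mean and SD as bars. The exercised KO libraries lie above the sedentary KO libraries for 9 genes, and overlap them for Casq2, while KO and WT libraries overlap for every gene in both conditions.

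Levels of different genes were compared only per kilobase of the longest protein-coding transcript, as means ± SD over the 12 libraries. The light chains led, with Myl3 at 5414 ± 812 and Myl2 at 4768 ± 736 CPM per kb, followed by Tnnt1 at 3988 ± 514. Tnnc1 stood at 2939 ± 426 CPM per kb. Then came Atp2a2 at 1684 ± 238, Tnni1 at 1622 ± 218, Myh7 at 1535 ± 262 and Myoz2 at 1357 ± 217 CPM per kb. Tpm3 at 1076 ± 190 and Casq2 at 173 ± 25.6 CPM per kb closed the order. The mean ± SD ranges of neighbours in this order overlapped except between Tnnt1 and Tnnc1, between Tnnc1 and Atp2a2 and between Tpm3 and Casq2. With the length of all exons joined in place of that transcript, Tnnc1 passed Tnnt1 (2036 against 1916 CPM per kb) and Tnni1 fell below Myh7 (518 against 1110 CPM per kb). Among fast counterparts the same measure over the longest transcript gave 10150 ± 2025 CPM per kb for Tnnt3, 4289 ± 634 for Atp2a1 and 1711 ± 296 for Myh2. These means exceeded those of their slow counterparts, as did Tnnc2 (6329), Tnni2 (3932), Tpm1 (2117) and Casq1 (906 CPM per kb). Below their slow counterparts stood Mylpf (3320), Myl1 (1831), Myh1 (535), Myoz1 (368) and Myh4 (156 CPM per kb). With all exons joined, Mylpf stood above Myl2 (2395 against 2174 CPM per kb).

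In sedentary mice, KO libraries were set against WT libraries, to ask whether loss of Dnmt3a changes the slow contractile genes of resting muscle. None of the 10 passed the test (edgeR's quasi-likelihood test, Benjamini-Hochberg adjusted over 13886 genes, threshold 0.05), where 0.0288% of all genes did. At an unadjusted p under 0.05 there were 0 of the 10, against 4.83% of all genes, and DESeq2 and limma-voom called 0. The log2 fold changes, KO over WT, ran from -0.29 for Myl3 to 0.05 for Casq2, with a median of -0.090, beside 0.0026 over all genes. Of the 10, 8 lay below 0, as did 49.3% of all genes. By edgeR, Myl3 had the smallest unadjusted p, with a log2 fold change of -0.29 (SE 0.149, adjusted p = 0.986). Myl2 stood at -0.22, Myoz2 at -0.20 and Myh7 at -0.13, while Tnnt1, Tnni1, Tnnc1 and Atp2a2 lay within 0.05 of 0. Over the 10 genes the 95% intervals reached from a fold of 0.655, the lower bound of Myl3, to one of 1.28, the upper bound of Casq2. KO and WT libraries overlapped for every gene, where 10.4% of all genes showed no overlap. The median depended on single libraries in both directions. It turned to 0.044 with 7 genes above 0 without WT sedentary b and came to -0.026 without KO sedentary b. It was -0.21 with 0 genes above 0 without WT sedentary a, and -0.19 without KO sedentary c.

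KO was next compared with WT after exercise. Again 0 of the 10 genes passed, against 0.0216% of all genes, and 0 had an unadjusted p under 0.05, against 3.38%; DESeq2 and limma-voom also called 0. All 10 log2 fold changes were above 0, as were 46.8% over all genes, and they were small: from 0.02 for Myl3 to 0.20 for Tpm3, with a median of 0.10. Myh7 stood at 0.17 (SE 0.163), Tnnt1 at 0.15 (SE 0.127) and Tnnc1 at 0.13 (SE 0.145), each with an adjusted p of 1.00 by edgeR. The intervals ran from a fold of 0.809 to one of 1.51. Groups overlapped for every gene, where 7.17% of all genes did not overlap. Without WT exercise b, in which 9 of the 10 genes had their lowest level among the exercised WT libraries, the median was 0.033 and 6 genes lay above 0. Without WT exercise c it was 0.19 with 9 genes above 0. Averaged over both conditions, KO over WT ran from -0.14 for Myl3 to 0.09 for Tnnt1, with a median of 0.031 and 7 of the 10 above 0, against 47.8% of all genes. That median was 0.067 without KO sedentary b and 0.091 without WT sedentary b. It fell below 0 without KO sedentary a, KO sedentary c, WT exercise b or WT sedentary a, down to -0.038 with 2 genes above 0 without WT sedentary a. There 0 of the 10 were called by edgeR, DESeq2 or limma-voom, against 0.0576% of all genes by edgeR, and 0 at an unadjusted p under 0.05, against 4.5%.

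**Figure D2:**
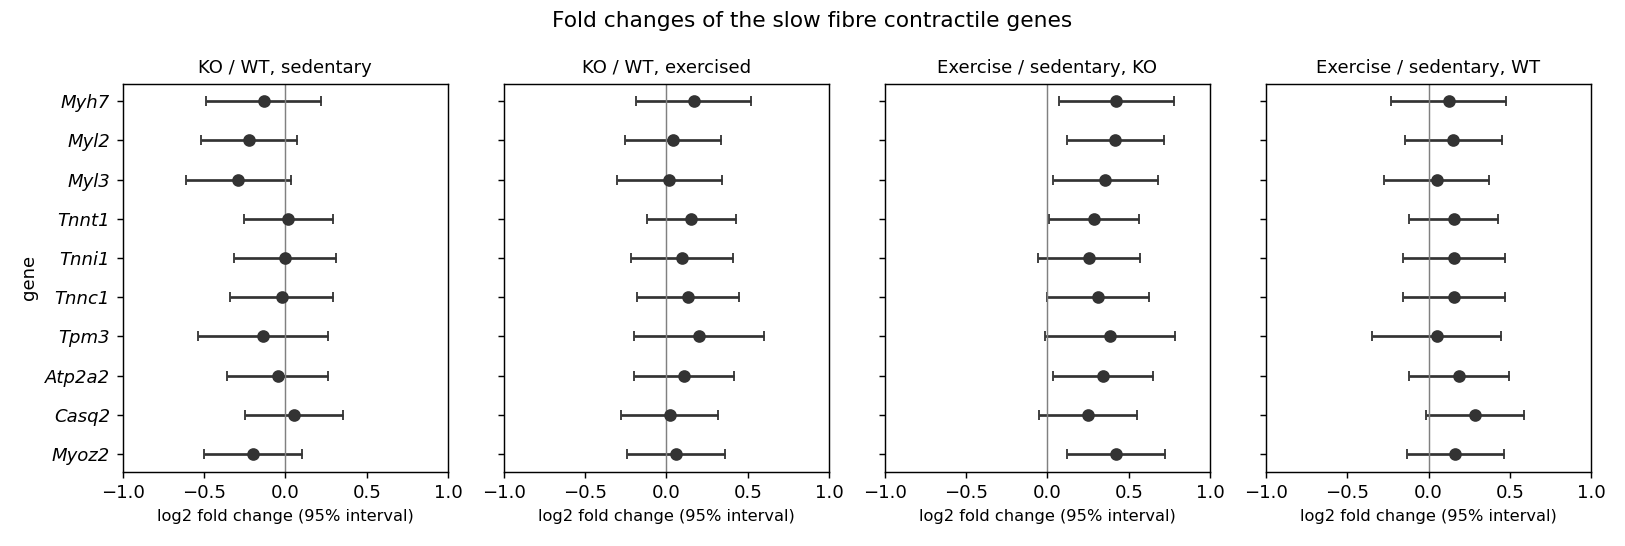
Log2 fold changes of the 10 genes (horizontal axis) with 95% intervals from edgeR's quasi-likelihood fit, for KO over WT in sedentary and in exercised mice and for exercise over sedentary in KO and in WT mice. Intervals of the genotype comparisons all include 0, and those for exercise in KO mice lie above 0 for 6 genes.

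Exercised KO mice were compared with sedentary KO mice. The 10 genes averaged higher after exercise, and their summed level was 44090 ± 1886 CPM in exercised KO and 34250 ± 3527 CPM in sedentary KO muscle (SD, n = 3 each). Log2 fold changes ran from 0.25 for Casq2 to 0.42 for Myh7, with a median of 0.35, beside -0.0096 over all genes. All 10 lay above 0, as did 48.5% of all genes. None passed the adjusted threshold, and 0 of all 13886 genes (0%) passed it in this comparison by edgeR. At an unadjusted p under 0.05 there were 6 of the 10 genes, against 17.9% of all genes: Myl2, Myoz2, Myh7, Atp2a2, Myl3 and Tnnt1. This count was 2 without KO exercise a, 3 without KO exercise c, 3 without KO sedentary b and 3 with library totals alone, against 9 without WT sedentary a. Myl2 had a log2 fold change of 0.42 (SE 0.137, adjusted p = 0.180), Myoz2 one of 0.42 (SE 0.139, adjusted p = 0.181) and Myh7 one of 0.42 (SE 0.163, adjusted p = 0.222), all by edgeR. Tpm3 stood at 0.38 (SE 0.183), Tnnc1 at 0.31 (SE 0.145) and Tnni1 at 0.25 (SE 0.144), with unadjusted p above the threshold. DESeq2 called 330 genes of the whole table here but 0 of the 10, and limma-voom called 0.

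For 9 of the 10 genes, all but Casq2, every exercised KO library lay above every sedentary KO library, where 10.3% of all genes did so. The choice of scaling bore on this. With library totals alone, without TMM, the median of all genes moved to -0.118, and the 10 genes to between 0.14 and 0.31 with a median of 0.24. Exercised libraries then lay above sedentary ones for 8 of the 10 genes (Atp2a2 overlapping too), against 3.32% of all genes. Without KO sedentary b, the library with the high fast genes, the log2 fold changes ran from 0.13 for Casq2 to 0.41, with a median of 0.32 and all 10 above 0. Some marker RNAs of other cells differed too: summed endothelial markers were 453 to 632 CPM in exercised KO and 711 to 806 CPM in sedentary KO muscle. Summed macrophage markers were 44.2 to 81.6 CPM in exercised KO and 101 to 392 CPM in sedentary KO muscle. Summed liver markers were 0 to 8.77 CPM and 12.6 to 405 CPM. The sums for tendon, Schwann cells, smooth muscle, adipocytes, erythrocytes and heart overlapped between these groups. Their part in the result was not tested.

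Exercised WT mice were compared with sedentary WT mice in the same way. All 10 log2 fold changes were above 0, beside 51% of all genes, from 0.05 for Tpm3 to 0.28 for Casq2, with a median of 0.15. By edgeR 0 passed, against 0.0216% of all genes, and 0 had an unadjusted p under 0.05, against 9.41%; DESeq2 and limma-voom called 0. Casq2, the largest, had a log2 fold change of 0.28 (SE 0.138, adjusted p = 0.563 by edgeR). Atp2a2 stood at 0.19 (SE 0.142) and Myh7 at 0.12 (SE 0.163), with the troponin subunits at 0.15 to 0.16. Exercised and sedentary WT libraries overlapped for every gene, where 15.3% of all genes showed no overlap. Here too the endothelial markers were lower after exercise, at 571 to 655 CPM in exercised WT and 801 to 835 CPM in sedentary WT muscle. Macrophage markers overlapped, at 46.4 to 81.2 CPM in exercised WT and 58.8 to 101 CPM in sedentary WT muscle. With library totals alone Myl3 and Tpm3 turned below 0, at -0.035 and -0.032. The WT values rested on single libraries: the median was 0.030 without WT sedentary a, 0.042 without WT exercise c, 0.23 without WT exercise b and 0.29 without WT sedentary b.

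Averaged over both genotypes, exercise over sedentary gave log2 fold changes between 0.20 for Myl3 and 0.29 for Myoz2, with a median of 0.25. All 10 lay above 0, as did 50.1% of all genes. In this comparison 2.32% of all genes passed, and 0 of the 10 did. At an unadjusted p under 0.05 there were 7 of the 10, against 22.8% of all genes. This count was 3 without WT exercise c, WT sedentary a or WT sedentary c, 5 without KO sedentary b and 2 with library totals alone, where the median was 0.16. The smallest adjusted p of the 10 by edgeR was 0.117, for Myoz2 (SE 0.0980), followed by 0.119 for Myl2 (log2 fold change 0.29, SE 0.0967). DESeq2 called these same 2 genes, with adjusted p = 0.0466 for Myl2 and 0.047 for Myoz2, and limma-voom called 0. Over the whole table DESeq2 called 997 genes here and limma-voom 317, against 322 by edgeR. Without WT exercise b, edgeR called Myoz2 (log2 fold change 0.37, adjusted p = 0.0306). Without KO sedentary b the median was 0.22, and 0 of the 10 were called. The exercise effect was not shown to differ between genotypes. The interaction ran from -0.03 for Casq2 to 0.33 for Tpm3 with a median of 0.21, and 9 of the 10 lay above 0, against 47.7% of all genes. Its median was 0.18 without KO sedentary b, 0.087 without WT sedentary b and 0.12 without WT exercise b, and 0.33 without WT sedentary a or WT exercise c. In it edgeR, DESeq2 and limma-voom called 0 of the 10. By edgeR 0% of all genes passed, and an unadjusted p under 0.05 was reached by 0 of the 10, against 3.1% of all genes. The 4 comparisons share groups of libraries with one another, so their values are not independent.

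Among adult myosin heavy chains, Myh7 shares the muscle with Myh2, Myh1 and Myh4, the genes of successively faster fibres. The share of Myh7 in the counts of these 4 genes does not depend on how libraries are scaled. It was 42.8%, 45.1% and 40.0% in exercised KO, 35.1%, 39.2% and 45.8% in exercised WT, 43.5%, 27.4% and 39.5% in sedentary KO and 35.0%, 45.2% and 37.4% in sedentary WT muscle. The lowest of the 12 shares, 27.4%, was that of KO sedentary b, where Myh4 took 21.4% and Myh1 19.5%. Myh4 took under 1% in KO exercise b (0.823%), KO sedentary a (0.170%), WT exercise c (0.137%) and WT sedentary b (0.145%). Shares averaged 42.7 ± 2.54% in exercised KO, 40.0 ± 5.37% in exercised WT, 36.8 ± 8.37% in sedentary KO and 39.2 ± 5.32% in sedentary WT muscle (SD, n = 3 each). The largest difference between groups, exercised over sedentary KO, was 5.86 percentage points (exact two-sided permutation test, p = 0.4, adjusted p = 0.96 over 6 tests), and it came to 1.17 points without KO sedentary b. KO minus WT was -2.41 points in sedentary mice (exact permutation p = 0.8), and this turned to 2.28 points without KO sedentary b and 0.59 points without WT sedentary b. After exercise it was 2.64 points (exact permutation p = 0.5), with 0.18 points without WT exercise a and 5.51 points without WT exercise c. Over both conditions it was 0.12 points (exact permutation p = 0.965), and 2.46 points without KO sedentary b. Exercise minus sedentary was 0.82 points in WT mice (exact permutation p = 0.7), from -2.05 points without WT exercise c to 3.81 points without WT sedentary b. Over both genotypes it was 3.34 points (exact permutation p = 0.34), and 0.99 points without KO sedentary b. With 3 libraries against 3, the smallest p this test can give is 0.1.

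**Figure D3:**
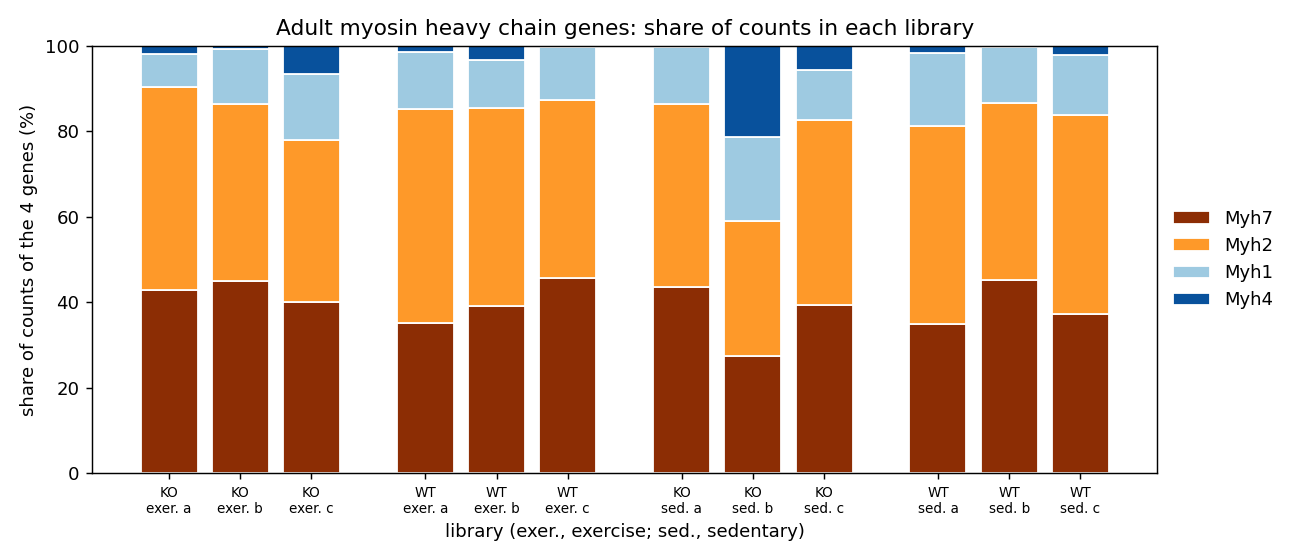
Share of the counts of the 4 adult myosin heavy chain genes (vertical axis, percent) taken by Myh7, Myh2, Myh1 and Myh4 in each of the 12 libraries (horizontal axis, by group). Myh7 and Myh2 together take most of the counts in every library, and KO sedentary b has 21.4% of Myh4 and 27.4% of Myh7.

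Each slow gene was also set against its fast counterpart in the same library, as the log2 ratio of their counts. Slow counts exceeded fast ones in all 12 libraries for Myl3 over Myl1, for Myoz2 over Myoz1 and for Myh7 over both Myh1 and Myh4, and in 11 libraries for Myl2 over Mylpf. Fast counts exceeded slow ones in all 12 for the 3 troponin pairs, Tpm3 and Tpm1, Atp2a2 and Atp2a1, and Casq2 and Casq1. Genes of a pair differ in length, so the sign of a count ratio does not by itself compare molecules. For the pairs just named, the means per kilobase of the longest transcript, given above, had the same direction. Over joined exons that of Myl2 and Mylpf turned. The ratios are read here for how they vary between libraries. KO sedentary b had the lowest ratio for 11 of the 12 pairs: Myl2 over Mylpf was -0.20 there, against 0.56 to 1.05 elsewhere, and Atp2a2 over Atp2a1 was -1.89, against -1.24 to -0.64 elsewhere. The exception was Myh7 over Myh2, lowest in WT exercise a at -0.52. Myl3 over Myl1 averaged 1.54 ± 0.061 in exercised KO, 1.44 ± 0.13 in exercised WT, 1.11 ± 0.50 in sedentary KO and 1.36 ± 0.050 in sedentary WT muscle (SD, n = 3 each). In sedentary KO muscle this ratio was 0.55 in library b and at least 1.29 in libraries a and c. Tpm3 over Tpm1 was -1.19, -0.92 and -1.09 in exercised KO and -1.25, -2.08 and -1.31 in sedentary KO muscle, separated by a narrow gap. This was the one pair of the 12 whose exercised and sedentary KO libraries did not overlap, and they overlapped for the other 11, with or without KO sedentary b. KO and WT libraries overlapped for all 12 pairs in both conditions.

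**Figure D4:**
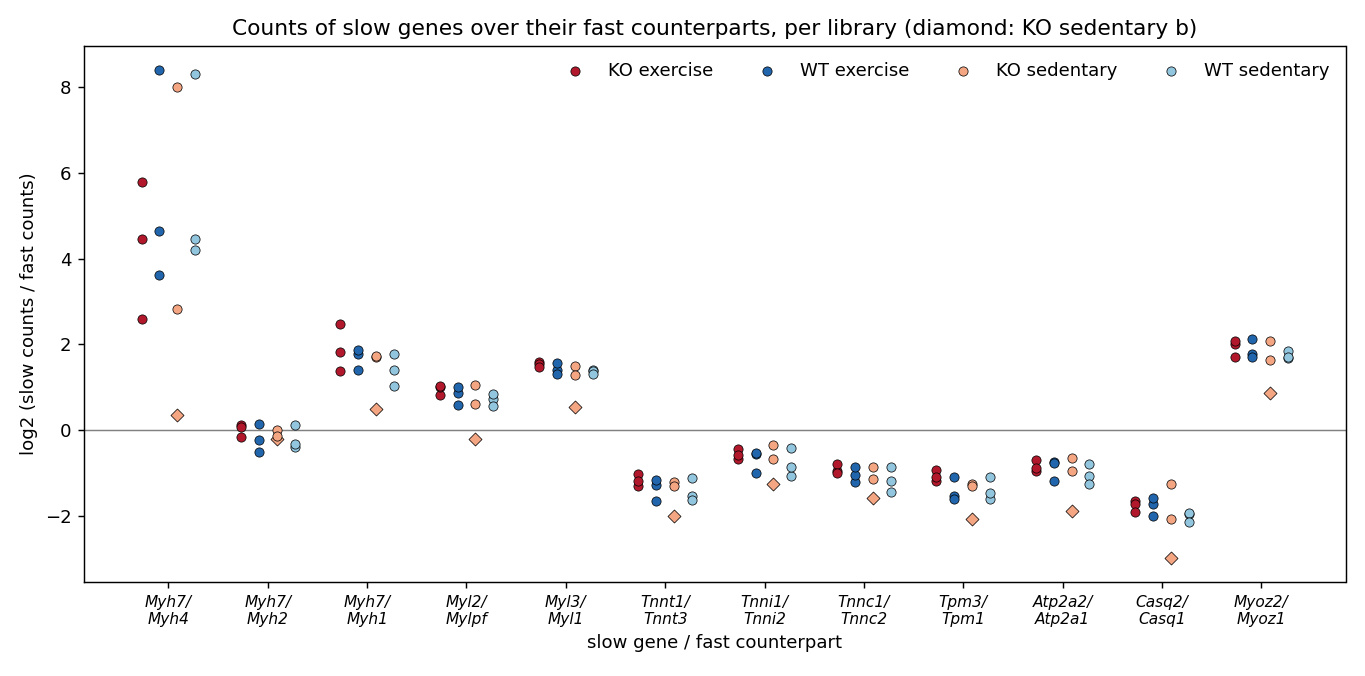
Log2 ratio of slow over fast counts (vertical axis) for 12 pairs of genes (horizontal axis), with 1 point per library, coloured by group, and KO sedentary b as a diamond. That library is lowest for 11 pairs, and the ratios with Myh4 spread most, from 0.36 to 8.39.

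Among the 12 libraries the 10 genes varied largely together. This is a description over libraries that share their scaling, with no test. Pearson's r of log2 CPM over the 45 pairs ran from 0.41 (Tpm3 and Casq2) to 0.99 (Tnni1 and Tnnc1), with a median of 0.81. With group means taken out, the pairs ran from 0.069 to 0.98 with a median of 0.75. Libraries WT sedentary a and KO sedentary b had the lowest mean of the 10 standardised levels (-1.40 and -1.28) and WT exercise c the highest (1.17). Each gene was set against the mean of the other 9, where Myh7 had r = 0.96, Myl2 0.95, Tnnc1 0.94 and Casq2, the lowest, 0.66. Fast contractile genes, set against the mean of all 10, ran from -0.39 for Mybpc2 to 0.54 for Myh2. Outside the 10, the genes most alike to that mean over the 12 libraries were Mhrt (0.96), whose exons overlap those of Myh7, then Fam174a (0.95), Fam53a (0.94), Ube2j2 (0.93), Nme6, Ndufc2, Commd3 and Klhl34 (each 0.92). The most opposite were Slamf9 (-0.94), Igfbp4, Gm2a and Selenop (each -0.93).

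**Figure D5:**
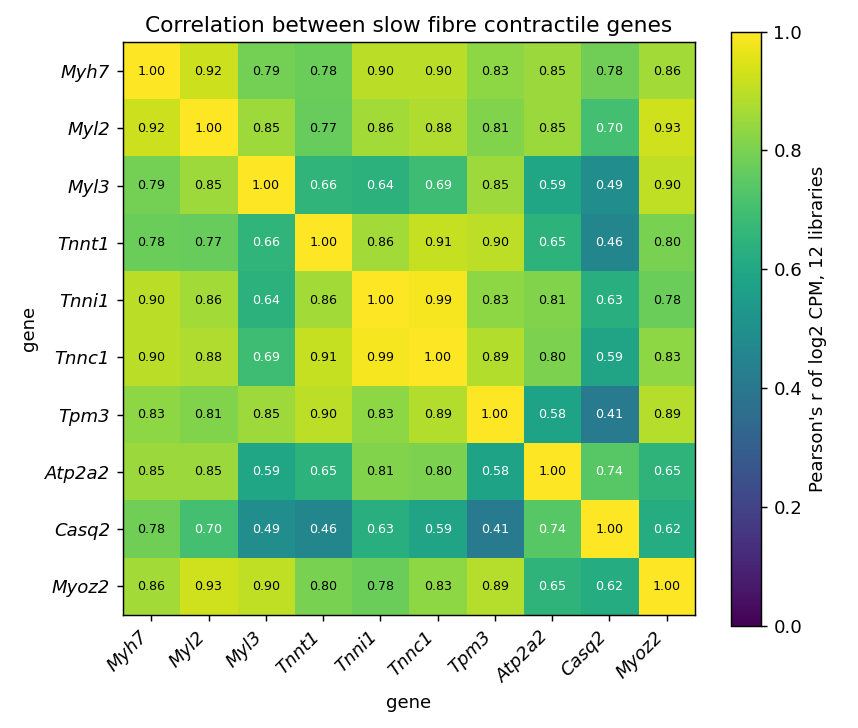
Pearson's r of log2 CPM over the 12 libraries for each pair of the 10 genes (both axes), by colour and as a number in each cell. Tnni1 and Tnnc1 are closest at 0.99, and Casq2 has the lowest values, down to 0.41 with Tpm3.

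Other muscle genes were followed as fixed lists. Of 16 genes listed as slow regulators and accessories, all tested, 0 passed in any of the 7 comparisons by edgeR. Not all of them are particular to slow fibres: Myoz3, a relative of Myoz2, was highest in KO sedentary b (135 CPM), the library with the high fast genes. With Myoz3 included, the median of the list after exercise was 0.27 in KO and 0.22 in WT mice. Beside these stood 0.35 and 0.15 for the 10 contractile genes. Lmod2, which elongates thin filaments, had 1827, 1153 and 1563 CPM in exercised KO, 2838, 1227 and 1716 CPM in exercised WT, 814, 943 and 978 CPM in sedentary KO and 895, 1362 and 1048 CPM in sedentary WT muscle (averaged over genotypes 0.77, SE 0.20, adjusted p = 0.0718 by edgeR). Sln, encoding sarcolipin, which binds the calcium pump, had a log2 fold change of 0.90 for KO over WT in sedentary mice (SE 0.212, adjusted p = 0.684 by edgeR). Ankrd2, a stretch-responsive protein of slow fibres, had one of -0.78 (SE 0.281, adjusted p = 0.986 by edgeR). Without KO sedentary b these values were 1.07 for Sln and -0.73 for Ankrd2. DESeq2, on all libraries, called Sln in sedentary mice (adjusted p = 0.0316), with 20 genes called over the whole table. It also called Sln averaged over conditions, with 33 over the whole table. By edgeR, Sln stood there at 0.71, and at 0.53 in exercised mice, where DESeq2 did not call it. For exercise over both genotypes DESeq2 called 4 genes of the list, Lmod2 among them (adjusted p = 0.00184), and 997 over the whole table. In that comparison edgeR called 0 to 4 genes of the list when 1 library at a time was left out. It called 2 without KO exercise b, with 697 over the whole table, and 4 without WT exercise b, with 449. Sln, Ankrd2 and Lmod2 are named because each stood at an end of the list in some comparison, and so were chosen after their values were seen. Chosen in the same way, the low end for exercise was Myoz3 in KO mice (-0.57) and averaged over genotypes (-0.27). In WT mice it was Myh7b (-0.17). At an unadjusted p under 0.05 this list had 5 of its 16 genes in sedentary KO against WT, where 4.83% of all genes had one, and 1 after exercise, where 3.38% had. It had 8 for exercise in KO mice, against 17.9% of all genes, and 3 in WT mice, against 9.41%. Without KO sedentary b the counts were 1 for sedentary KO against WT and 2 for exercise in KO mice.

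Of 34 transcription factors and signalling genes of the slow programme, 1 passed, in 1 comparison, exercise averaged over genotypes. That is 2.94% of the list, near the 2.32% of all genes that passed there, and so says nothing about the list. This gene, Fnip1, which encodes a folliculin-binding protein whose loss in mice raises slow fibre content, rose after exercise by 0.61 on the log2 scale (SE 0.139, adjusted p = 0.0465 by edgeR). Its levels were 111, 119 and 149 CPM in exercised KO, 187, 131 and 133 CPM in exercised WT, 83.2, 79.0 and 114 CPM in sedentary KO and 108, 75.4 and 80.2 CPM in sedentary WT muscle. The WT groups did not overlap and the KO groups did, narrowly. The call rested on single libraries: Fnip1 passed without KO exercise b, KO sedentary c, WT exercise b or WT sedentary a, and missed the threshold without any of the other 8, with adjusted p up to 0.118 by edgeR. It also missed it with library totals alone (adjusted p = 0.0622) and with no filter on low counts (adjusted p = 0.0568). Fnip1 passed with another scaling (RLE factors), limma-voom and DESeq2. DESeq2 called 4 genes of the list in this comparison, with 997 over the whole table, and Fnip1 for exercise in WT mice, with 122. Other genes were called by edgeR with library totals alone (Bhlhe40, with 494 over the whole table) and without KO exercise a (Vgll2, with 163). Of 16 fast contractile genes 0 passed in any comparison by edgeR, with medians of -0.11 for exercise in KO and 0.063 in WT mice. Without KO sedentary b the median in KO mice turned to 0.22. Myh4 had the largest fold change of KO over WT in sedentary mice, 3.00 on the log2 scale, with an SE of 1.70 (adjusted p = 0.986 by edgeR), its mean of 2270 CPM in sedentary KO muscle resting on 5502 CPM in library b, against 33.7 and 1274 CPM in libraries a and c. Without library b it was 1.20 on the log2 scale.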

How the data were processed

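RNA from soleus muscle was sequenced on a BGISEQ instrument from libraries made with a BGI kit, after Trizol and column extraction, per the labels' protocols. The values used are whole-number counts per gene, not normalized, in 1 table covering the series, as the authors deposited it. The submitters' processing notes name STAR, featureCounts and mm10, with no role; versions, annotation and strand setting are not given in the sources used. The table's 12 RPKM columns were not used. Count columns carry group names and animal numbers that match no replicate label, so each was assigned to its group only, and a, b and c follow column order. Each library was taken as its own mouse, as the design text gives 3 per group; if they share an origin, p-values measure only the spread between samples.

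Genes passing filterByExpr (minimum count 10; 13886 of 24539, with all 10 slow genes) were fitted over the 12 libraries with 1 mean per group by edgeR 4.0.16 (TMM, robust glmQLFit and glmQLFTest; 8 residual degrees of freedom, common biological coefficient of variation 0.168). Log2 fold changes from 7 contrasts have SEs from the F statistic and 95% intervals. P-values were adjusted by Benjamini-Hochberg over all genes, with a threshold of 0.05. Log2 CPM used a prior count of 2. The share of Myh7 was compared by exact two-sided permutation tests, adjusted over 6. Coordinates and lengths are from GENCODE M21 (mm10), and promoter and microRNA sequences from RefSeq (GRCm38.p6). The script was tested on simulated data. Alternatives were RLE factors, library totals, no filter, DESeq2 1.42.0, limma-voom (limma 3.58.1), the compared groups alone, leaving out each library, and, added after seeing the data, scaling without slow and fast fibre genes.

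Named genes were the 10 slow genes, members of the pathway lists past the threshold, the fast counterparts, and the 8 most and 4 least alike genes by Pearson's r; others are marked as chosen after seeing their values. The 10 genes and the lists were chosen with earlier results of these data known. Marker lists were summed as CPM. Erythrocyte markers came to 105 to 341 CPM, tendon markers to 165 to 838 and smooth muscle markers to 165 to 241 CPM. Fast fibre markers came to 41080 to 78960 and slow fibre markers, which are the 10 genes, to 30800 to 46550 CPM. Adipocyte markers came to 3009 to 4619 CPM, but nearly all of this was Car3, at 2931 to 4446 CPM. The other adipocyte markers were Cfd (18.5 to 162 CPM), Adipoq (2.6 to 34.7), Plin1 (1.4 to 17.7) and Retn (1.2 to 7.2 CPM). The adipocyte sum therefore follows Car3 and is not a measure of fat.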

Additional observations from a re-analysis of the deposited data

How the results depend on the processing

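Of 130 recounts of how many of the 10 genes passed, 128 gave 0, as in the main analysis. The exceptions were exercise averaged over genotypes with DESeq2 (2 genes) and leaving out 1 library at a time (0 to 1, with 1 without WT exercise b). Over the whole table DESeq2 called more genes than edgeR in every comparison: 20 against 4 for KO over WT in sedentary mice, 7 against 3 after exercise, 33 against 8 over both conditions, 122 against 3 for exercise in WT, 330 against 0 in KO, 997 against 322 over both genotypes and 25 against 0 for the interaction. With library totals alone edgeR called 494 for exercise over both genotypes, and without single libraries 45 (without WT sedentary c) to 697 (without KO exercise b). With the compared groups alone it called 7 for exercise in KO mice and 6 in WT mice.

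Small fold changes turned sign under some settings, and the cause was not tested. With library totals alone, exercise in WT mice gave -0.035 for Myl3 and -0.032 for Tpm3, while the median of all genes moved to -0.077. Leaving out 1 library at a time, exercise in WT mice ran from -0.00071 to 0.29 for Myh7, from -0.043 to 0.19 for Myl3 and from -0.15 to 0.22 for Tpm3. KO over WT ran from -0.063 to 0.17 for Casq2 in sedentary mice and from -0.13 to 0.11 for Myl3 after exercise, and the interaction of Casq2 from -0.15 to 0.082. All 10 genes stayed above 0 for exercise in KO mice, and over both genotypes, under every alternative. With Myh7 and Myh2 alone in the denominator, the difference in the share of Myh7 was 1.52 points for KO minus WT in sedentary mice and -0.16 points for exercise in WT mice. For KO minus WT over both conditions, 0.12 points in the main analysis, it was -0.077 points with counts per exon length and 2.67 points with Myh7 and Myh2 alone. Without single libraries these 3 differences ran from -5.76 (without KO sedentary a) to 2.28 (without KO sedentary b), from -2.05 (without WT exercise c) to 3.81 (without WT sedentary b) and from -1.56 (without KO sedentary a) to 2.46 points (without KO sedentary b).

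No paired analysis was possible because the count columns carry animal numbers that match no replicate number of the labels. The biological coefficient of variation of the 10 genes was 0.126 to 0.169, and with 3 libraries a group this spread, more than the depth of at least 13329547 counts per library, sets the width of their intervals.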
